A study of Sus scrofa with 14 samples.

Results

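The genes described here are the pig major histocompatibility complex (MHC) class II genes, whose symbols begin with SLA-D (swine leukocyte antigen), together with CD74, the invariant chain. A member was any gene with such a symbol whose RefSeq transcript accession was carried by a probe of the array. This gave 9 genes read by 32 probes, out of 2389 named genes and 43603 probes in all. The tissue was meniscus, the fibrocartilage pad of the knee, from male Hainan Wuzhishan pigs with a stated age of 6 to 7 months. In the OA group (osteoarthritis, 7 animals) the anterior cruciate ligament had been operated on 24 weeks before sampling, and in the sham group (7 animals) a sham operation had been done as long before. Animals of both groups were described as healthy adults at the start and were divided at random, so the stated age is read here as that before the operation. Each animal gave 1 single-colour array, and the question put to these genes is whether operated and sham knees differ in them. The OA group is a surgical model of joint disease, and the sources used here do not say which part of the meniscus was taken.

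Class II molecules sit on the surface of antigen-presenting cells, mainly dendritic cells, macrophages and B cells, and show peptides from engulfed proteins to CD4+ T cells. Each is a pair of an alpha and a beta chain, here SLA-DRA with SLA-DRB1 and SLA-DQA1 with SLA-DQB1. CD74 holds new pairs together and blocks their peptide groove on the way to the endosome, where SLA-DM, made of SLA-DMA and SLA-DMB, exchanges the CD74 remnant for a peptide, and SLA-DO, made of SLA-DOA and SLA-DOB, restrains SLA-DM. Transcription of these genes and of CD74 is driven by the coactivator CIITA, which interferon gamma induces also in cells that do not present antigen at rest. In joints, class II molecules are best known from the macrophages and dendritic cells of the synovium.

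The RefSeq table of the Sscrofa11.1 assembly lists 12 SLA-D genes on chromosome 7, in the order SLA-DRA, SLA-DRB4, SLA-DRB1, SLA-DQA1, SLA-DQB2, SLA-DQB1, SLA-DRB5, SLA-DYB, SLA-DOB, SLA-DMB, SLA-DMA and SLA-DOA, and CD74 on chromosome 2. The 4 genes SLA-DRB4, SLA-DQB2, SLA-DRB5 and SLA-DYB are pseudogenes with no transcript in the table, and no probe was assigned to them. SLA-DRA and SLA-DQA1 had 7 probes each, SLA-DRB1 and SLA-DQB1 had 4 each, and SLA-DMA, SLA-DMB, SLA-DOA, SLA-DOB and CD74 had 2 each. Class II genes are alike in sequence and differ between animals in their alleles, and a probe may read a relative or read some alleles poorly, so values are given by probe. Levels are log2 of the processed signal relative to the array's 75th percentile, so 0 is the level of that percentile. A level is compared between arrays. In places probes are ordered by signal or summed over a list, which is not read as a difference in RNA amount between them.

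All 32 probes were bright enough to be tested, and 31 of them were well above background on all 14 arrays. The exception was the dimmer SLA-DOB probe, well above background on 7 sham and 4 OA arrays. The meniscus matrix genes ACAN, DCN, SPARC, HAPLN1 and SOX9 were measured in both groups, and their summed linear signal ran from 377 to 838 times the 75th percentile on sham arrays and from 491 to 1042 times on OA arrays. The raw 75th percentile was 539 ± 82.6 (SD, n = 7) on the sham arrays and 274 ± 125 (SD, n = 7) on the OA arrays, in arbitrary units of intensity (two-sided exact permutation test, p = 0.0035). Sham 1 to 4 lay on slide 1 and sham 5 to 7 on slide 2, whereas OA 1 lay on slide 3, OA 2 to 5 on slide 4 and OA 6 and 7 on slide 5. No slide and no scan day held both groups, so group, slide and array brightness cannot be told apart, and this holds for every OA minus sham difference given here. The series text gives 14 pigs for the 14 arrays, and each array was taken as a separate animal.

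None of the 32 class II and CD74 probes passed the test between the groups. By limma with Benjamini-Hochberg adjustment over 38818 tested probes, 0 of 32 were called, against 1449 of all tested probes (3.73%), of which 1120 were higher in OA (2.89%) and 329 lower (0.848%). At an unadjusted p under 0.05 there were 3 of 32, namely 1 CD74 probe and both SLA-DOB probes, whereas 7593 of all tested probes (19.6%) reached it. The differences in log2 level ran from -0.67 to 0.52 with a median of 0.08, where the median of all tested probes was -0.05. Of the members 18 were higher on average in OA and 14 lower, and this split moved with single animals: 28 were higher without OA 3 and 9 without OA 2. The sham and OA values overlapped for each of the 32 probes, while 671 of all tested probes (1.73%) did not overlap.

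**Figure D1:**
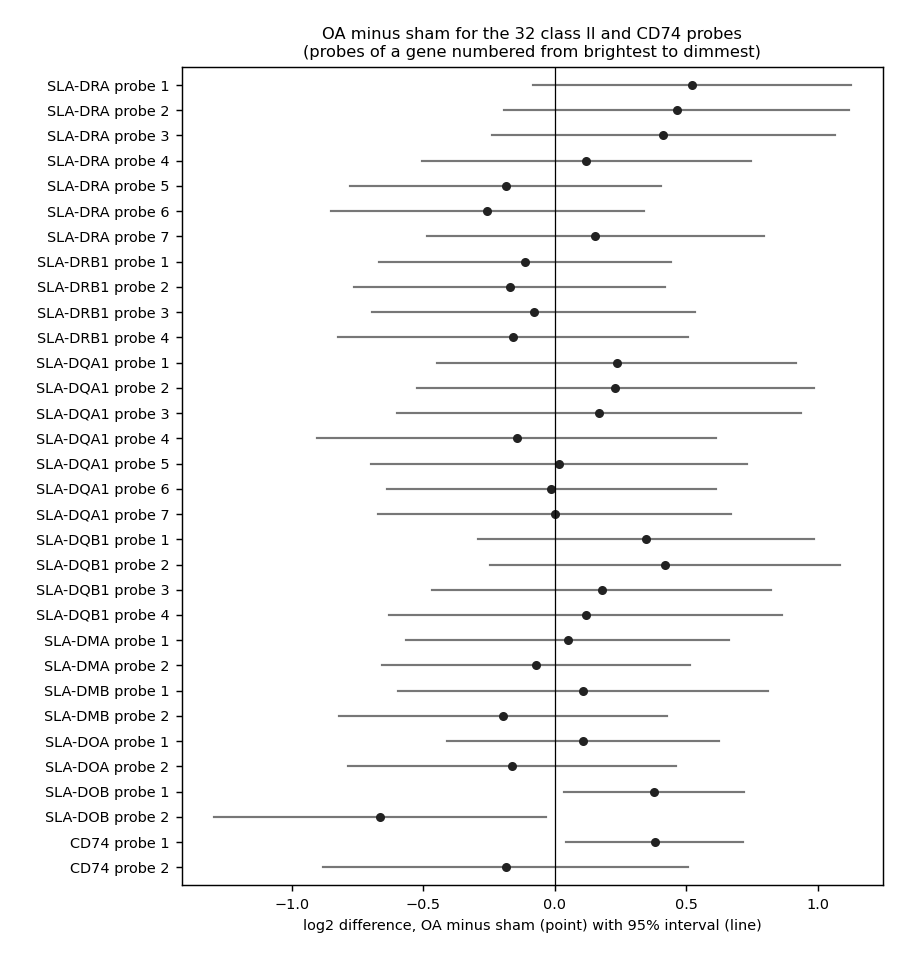
Differences between groups for each class II and CD74 probe. The x axis is the log2 difference in level, OA minus sham, with its 95% interval as a line and 7 arrays in each group; rows are probes, numbered within a gene from brightest to dimmest. The intervals of 29 probes include 0, and those of CD74 probe 1 and both SLA-DOB probes do not, although none of the 32 had an adjusted p under 0.05.

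SLA-DRA encodes the alpha chain of SLA-DR, which varies little between animals. Its brightest probe (A_72_P176171) had a level of 5.14 at the lowest, 6.04 at the median and 6.91 at the highest on sham arrays, and of 5.87, 6.30 and 7.46 on OA arrays. The groups overlapped, 6 of 7 OA arrays lay above the sham mean, and 1 (OA 2) lay above the highest sham array. The difference was 0.52 ± 0.29 (SE), a 1.43-fold higher mean in OA with a 95% interval of -0.08 to 1.13 in log2 (limma, adjusted p = 0.33). Its next brightest probes, A_72_P683574 and A_72_P652871, gave 0.46 ± 0.31 and 0.41 ± 0.31. The other 4 probes did not follow that size: A_72_P640825 gave 0.12 ± 0.30, A_72_P561324 gave 0.15 ± 0.30, A_72_P571544 gave -0.19 ± 0.28 and A_72_P610249 gave -0.26 ± 0.28. The lowest adjusted p of any SLA-DRA probe was the 0.33 of the brightest. So the 7 probes of this gene disagreed in the sign of the OA difference, 5 being positive and 2 negative, with all 7 intervals including 0.

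SLA-DRB1 encodes the beta chain that pairs with SLA-DRA and carries most of the variation of SLA-DR between animals. On its brightest probe (A_72_P110316) sham arrays had a level of 3.24 at the lowest, 3.43 at the median and 3.90 at the highest, and OA arrays of 2.15, 3.44 and 4.35. The medians of the groups nearly coincided, and OA arrays lay on both sides of the whole sham range, OA 1 and OA 2 above it and OA 3 and OA 7 below it. All 4 probes had a lower mean in OA, by -0.11 ± 0.26, -0.17 ± 0.28, -0.08 ± 0.29 and -0.16 ± 0.31 from brightest to dimmest, with adjusted p from 0.78 to 0.91 (limma).

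SLA-DQA1 encodes the alpha chain of SLA-DQ, the other peptide-presenting pair. Its brightest probe (A_72_P244477) had a level of 4.37 at the lowest, 5.49 at the median and 6.38 at the highest on sham arrays, and of 4.59, 5.69 and 6.33 on OA arrays. The OA range lay inside the sham range, and the difference was 0.24 ± 0.32 (limma, adjusted p = 0.73). The other 6 probes differed by 0.23 ± 0.36 (A_72_P721473), 0.17 ± 0.36 (A_72_P720353), -0.15 ± 0.36 (A_72_P763148), 0.02 ± 0.34 (A_72_P712598), -0.01 ± 0.30 (A_72_P746609) and, just below 0, by less than 0.01 with an SE of 0.32 (A_72_P750437). The 7 probes thus ranged from -0.15 to 0.24, 4 positive and 3 negative, with a median of 0.02.

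SLA-DQB1 encodes the beta chain of SLA-DQ. Its brightest probe (A_72_P039061) had a level of 5.07 at the lowest, 6.00 at the median and 6.65 at the highest on sham arrays, and of 5.62, 6.04 and 7.51 on OA arrays. The highest OA value was that of OA 2, and the 6 other OA arrays lay inside the sham range. The difference was 0.35 ± 0.30 (limma, adjusted p = 0.56), and the 3 other probes gave 0.42 ± 0.32 (A_72_P585101), 0.18 ± 0.30 (A_72_P672583) and 0.12 ± 0.35 (A_72_P631166). SLA-DQB1 was the only member gene with 2 or more probes that were all higher on average in OA, and SLA-DRB1 the only one whose probes were all lower; neither gene had a call.

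SLA-DMA and SLA-DMB, the chains of the peptide exchanger SLA-DM, had almost equal group means. The brighter SLA-DMA probe (A_72_P025111) ran from 2.45 over a median of 3.21 to 4.22 on sham arrays and from 2.59 over 3.07 to 4.42 on OA arrays, with a difference of 0.05 ± 0.29. The brighter SLA-DMB probe (A_72_P375073) ran from 2.62 over 3.24 to 4.28 on sham arrays and from 2.57 over 3.13 to 4.72 on OA arrays, with a difference of 0.11 ± 0.33. In both genes sham 1 and OA 2 were the highest arrays of their groups, and the ranges were alike. The dimmer probes gave -0.07 ± 0.28 (SLA-DMA) and -0.20 ± 0.29 (SLA-DMB).

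SLA-DOA, a chain of the SLA-DM inhibitor, had a level on its brighter probe (A_72_P513855) of 0.76 at the lowest, 0.98 at the median and 1.92 at the highest in sham, and of 0.73, 1.11 and 2.16 in OA. The difference was 0.11 ± 0.24, and the other probe (A_72_P375623) gave -0.16 ± 0.29. SLA-DOB, its partner chain, which B cells are known to express, gave low signals, with a geometric mean of 41.5 for the brighter probe, well above background on all 14 arrays, and 24.2 for the dimmer. The brighter SLA-DOB probe (A_72_P634856) ran from -3.72 over -3.23 to -2.89 on sham arrays and from -3.18 over -2.95 to -2.74 on OA arrays. All 7 OA arrays lay above the sham mean and 3 above the highest sham array, with a difference of 0.38 ± 0.16 (limma, unadjusted p = 0.033, adjusted p = 0.21). The dimmer probe (A_72_P440006) went the other way, from -4.05 over -3.55 to -3.12 on sham arrays and from -5.25 over -4.25 to -3.19 on OA arrays, a difference of -0.67 ± 0.30 (unadjusted p = 0.040, adjusted p = 0.23). Its 4 lowest OA arrays were OA 2 to 5, all on slide 4, and without that slide the difference was 0.09. With normexp background correction, the dimmer probe turned to 0.40 (limma, adjusted p = 0.017) and the brighter stood at 0.64 (adjusted p = 0.0016). That correction moved the median of all tested probes to 0.34, by unlike amounts for different probes. Its part in these SLA-DOB values was not tested.

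CD74 had 2 probes that disagreed. The brighter (A_72_P796773) had a level of -0.65 at the lowest, -0.45 at the median and -0.11 at the highest on sham arrays, and of -0.30, -0.11 and 0.47 on OA arrays. All 7 OA arrays lay above the sham mean and 3 of them above the highest sham array. The difference was 0.38 ± 0.16, a 1.30-fold higher mean in OA with a 95% interval of 0.04 to 0.72 in log2, and it did not pass adjustment (limma, unadjusted p = 0.029, adjusted p = 0.20). The dimmer probe (A_72_P223292) spread over a far wider range, from -2.21 over -0.92 to -0.36 on sham arrays and from -2.46 over -1.31 to -0.50 on OA arrays. Its OA arrays lay on both sides of the sham mean, 3 above and 4 below, and the difference was -0.19 ± 0.33 (adjusted p = 0.79).

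**Figure D2:**
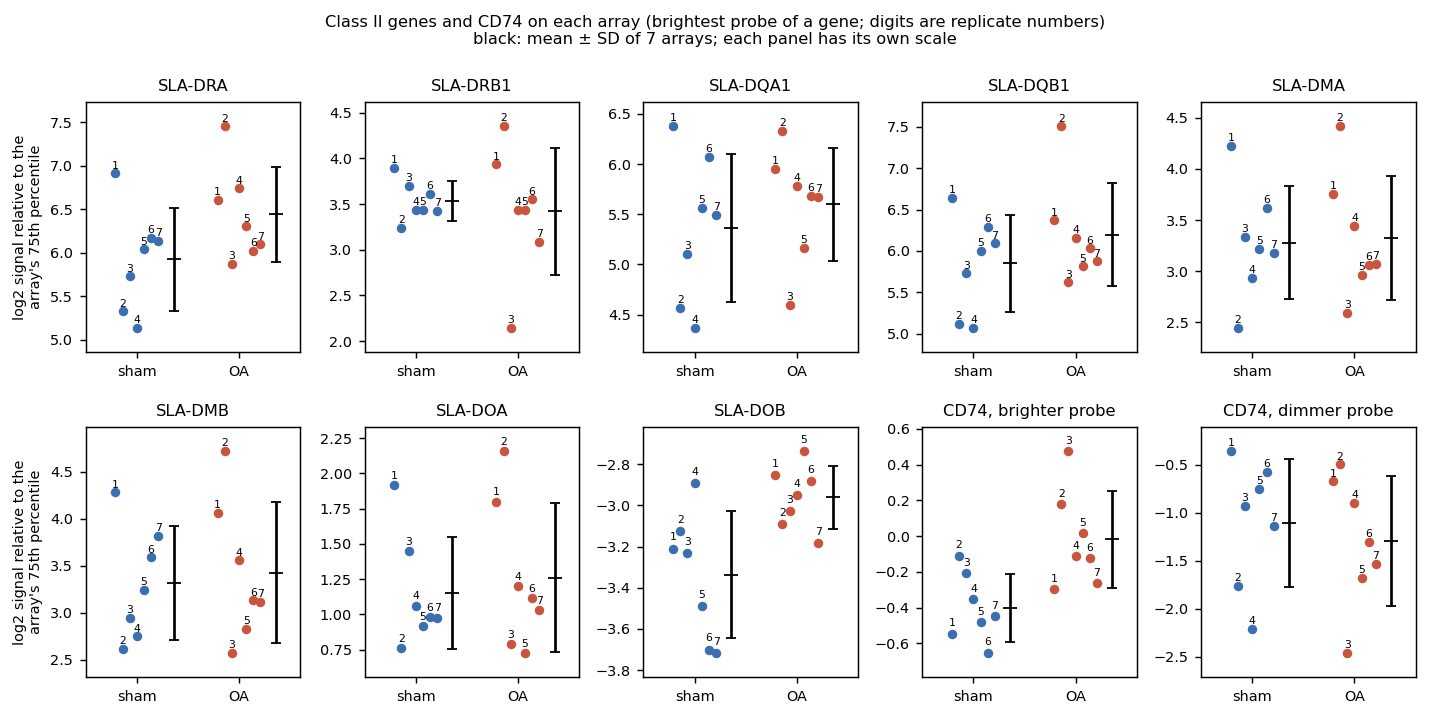
Level of each class II gene (brightest probe) and of both CD74 probes on each array. The y axis of each panel is log2 signal relative to the array's 75th percentile, points are animals with their replicate number, and black bars are the mean ± SD of 7 arrays. The groups overlap in all 10 panels, sham 1 and OA 2 stand at or near the top for most class II genes and for the dimmer CD74 probe, and OA 3 stands at the top for the brighter CD74 probe.

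Animals of the same group differed by more than the group means did, on each of the 32 probes. The animal OA 2 had the highest OA value for 29 of 32 probes and OA 3 the lowest for 26. Among sham animals, sham 1 was highest for 28 of 32, and sham 2 or sham 4 was lowest, for 16 and 12 probes. Relative to each probe's sham mean, the median deviation over the 32 probes was 1.02 in OA 2, 0.81 in sham 1 and 0.59 in OA 1. At the low end it was -0.90 in OA 3, -0.54 in sham 2, -0.43 in OA 7 and -0.34 in sham 4. The other arrays lay between -0.07 and 0.22. OA 1 exceeded the sham mean for 32 of 32 probes and OA 2 for 31, whereas OA 3 did for 3 and sham 2 for 2.

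The contrasts of OA 2 with OA 3, and of sham 1 with sham 2 and sham 4, lay within slides. OA 2 and OA 3 shared slide 4, and sham 1, sham 2 and sham 4 shared slide 1. OA 1 was alone on slide 3, so its deviation from the sham mean did not lie within a slide. Between OA 2 and OA 3, the brightest SLA-DRA probe differed 3.004-fold, the brightest SLA-DQB1 probe 3.70-fold, the brightest SLA-DMB probe 4.43-fold, the 4 SLA-DRB1 probes 4.61-fold to 6.30-fold and SLA-DQA1 probe A_72_P720353 6.42-fold. These 2 arrays had close raw 75th percentiles, 203 for OA 2 and 190 for OA 3. The sham arrays of the other contrasts were less alike in brightness, with 597 for sham 1, 418 for sham 2 and 608 for sham 4. Between sham 1 and sham 2 the brightest SLA-DRA probe differed 3.003-fold, the brightest SLA-DQA1 probe 3.51-fold and the brightest SLA-DMA probe 3.42-fold, but the SLA-DRB1 probes only 1.40-fold to 1.71-fold. Neither the brighter CD74 probe nor either SLA-DOB probe took part. OA 2 stood at 0.81 times OA 3 on that CD74 probe, and at 0.96 and 0.80 times on the brighter and dimmer SLA-DOB probes. With 1 array per animal, these are differences between single arrays and have no replicate check. In bulk tissue, fewer cells that express a gene and less of its RNA per cell cannot be told apart.

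**Figure D3:**
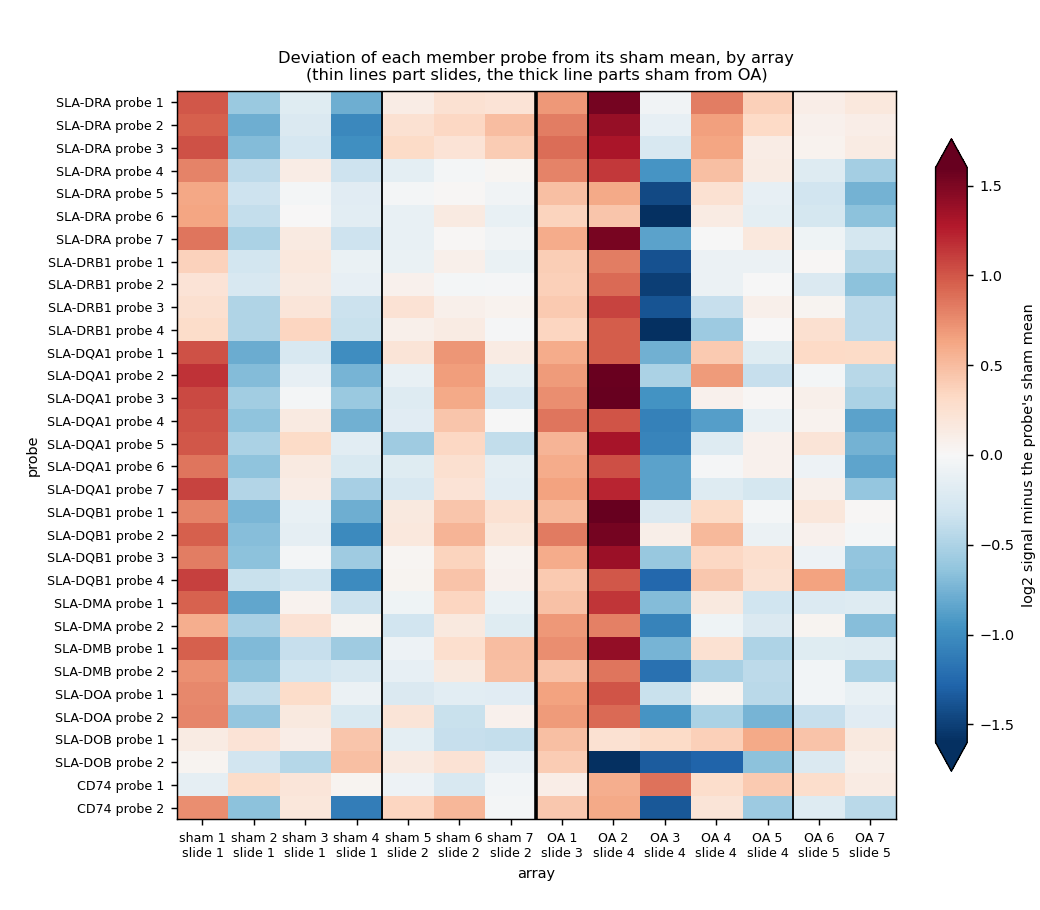
Deviation of each of the 32 probes from its sham mean, by array. Columns are the 14 arrays with their slide, rows are probes from brightest to dimmest within a gene, and colour is the log2 difference from the probe's sham mean (red above, blue below). The columns of sham 1, OA 1 and OA 2 are red and that of OA 3 is blue over nearly all class II genes, and the rows of SLA-DOB and of CD74 probe 1 depart from this.

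The typical class II or CD74 probe was also more spread than the typical probe of the array. The median SD over the 32 probes was 0.50 in sham and 0.70 in OA, where the medians of all tested probes were 0.38 and 0.48. The SD was larger in OA for 26 of 32 member probes (81.25%), and for 64.9% of all tested probes. SLA-DRB1 showed this most: its 4 probes had sham SDs of 0.16 to 0.31 and OA SDs of 0.69 to 0.85, so that the OA SD was 2.64 to 4.71 times the sham SD. On its brightest probe the 5 OA arrays other than OA 2 and OA 3 lay between 3.09 and 3.93, close to the sham range of 3.24 to 3.90. The 3 brightest SLA-DRA probes had the opposite order, with OA SDs 0.74 to 0.92 times those of sham. No test of these spreads was made. The 32 probes read 9 genes and mostly shared their extreme OA arrays, OA 2 being highest for 29 and OA 3 lowest for 26. They are therefore not separate observations, and the share of 81.25% rests largely on these animals.

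Within each group, 3 of the 7 relations of SLA-DRA with the other SLA-D genes passed adjustment by Pearson r, and 6 of 7 were positive. Over the 7 sham arrays, the brightest SLA-DRA probe correlated with that of SLA-DQB1 at Pearson r = 0.976 (exact permutation p = 0.0002, the smallest that 7 arrays allow, adjusted p = 0.010 over 102 relations) with Spearman rho 1.00. In the same arrays r was 0.965 for SLA-DQA1 (exact permutation p = 0.0004, adjusted p = 0.013) and 0.953 for SLA-DMB (exact permutation p = 0.00079, adjusted p = 0.020), with rho of 0.964 and 0.929. Over the 7 OA arrays r was 0.951 for SLA-DMA, 0.930 for SLA-DQB1 and 0.922 for SLA-DMB (exact permutation, adjusted p = 0.035, 0.044 and 0.044), with rho of 0.857, 0.821 and 0.821. By rho, none of the 7 OA relations of SLA-DRA had an adjusted p under 0.05, and 2 of the 7 sham relations did. Without the 2 arrays farthest from the median of SLA-DRA (sham 1 and sham 4, or OA 2 and OA 4), r of these 6 relations lay between 0.807 and 0.986.

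The remaining partners were less close to SLA-DRA. With SLA-DRB1, r was 0.733 in sham and 0.803 in OA (exact permutation, adjusted p = 0.18 and 0.13). SLA-DOA gave 0.633 and 0.847, and without the 2 farthest arrays its sham value dropped to 0.110, so it rested on them. SLA-DOB gave -0.512 in sham and -0.123 in OA (exact permutation, adjusted p = 0.42 and 0.88). No slide held more than 4 arrays, so no r is given for a single slide. With each slide's mean taken off both probes (7 sham arrays, and 6 OA arrays, since OA 1 was alone on its slide), r of SLA-DRA with SLA-DRB1, SLA-DQA1, SLA-DQB1, SLA-DMA, SLA-DMB and SLA-DOA was 0.846 to 0.984 in sham and 0.906 to 0.994 in OA, as a description added after the values were seen. Array brightness gave r with SLA-DRA of 0.358 in sham and -0.477 in OA (exact permutation, adjusted p = 0.60 and 0.45).

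The CD74 probes parted here as well. The brighter probe had a median r of -0.71 over the 8 SLA-D genes in sham and of -0.19 in OA; none of these 16 relations had an adjusted p under 0.05, and the lowest was 0.13. Its relation to array brightness was r = -0.808 in sham (exact permutation p = 0.028, adjusted p = 0.13) and -0.471 in OA (exact permutation, adjusted p = 0.45), and -0.314 and -0.267 without the 2 farthest arrays. The dimmer probe followed most of the class II genes, with median r of 0.79 in sham and 0.88 in OA. It did not follow SLA-DOB, with r of -0.610 in sham and 0.012 in OA, and its r with SLA-DOA was 0.516 in sham and 0.856 in OA. For SLA-DQA1 it gave r = 0.942 in sham (exact permutation p = 0.0016, adjusted p = 0.032) and 0.960 in OA (exact permutation p = 0.0002, adjusted p = 0.010), and 0.848 and 0.843 without the 2 farthest arrays. Of the dimmer probe's relations, 3 of 8 in sham and 4 of 8 in OA had an adjusted p under 0.05 by Pearson r. By rho, 1 of 8 in sham and 5 of 8 in OA did. The dimmer probe and the relations of SLA-DRA were taken up after the values were seen. The 2 CD74 probes correlated with each other at r = -0.63 in sham and -0.53 in OA, as a description.

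**Figure D4:**
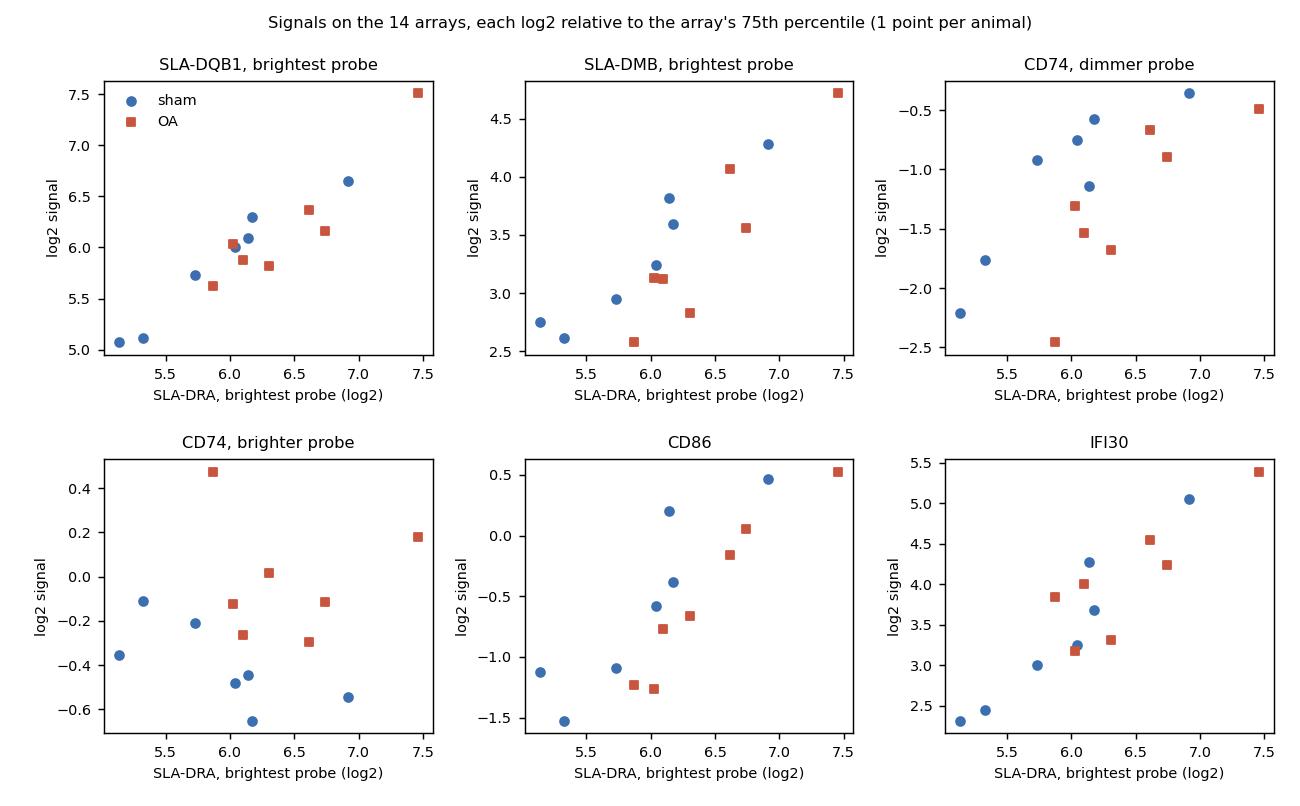
Level of 6 probes against that of the brightest SLA-DRA probe, 1 point per animal (blue circles sham, red squares OA). Both axes are log2 signal relative to the array's 75th percentile. SLA-DQB1, SLA-DMB, the dimmer CD74 probe, CD86 and IFI30 climb with SLA-DRA in both groups, and the brighter CD74 probe does not.

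Agreement between probes of the same gene set these cases apart. For SLA-DRA, SLA-DRB1, SLA-DQA1, SLA-DQB1, SLA-DMA, SLA-DMB and SLA-DOA the median r between probes of a gene was 0.84 to 0.98 in sham and 0.86 to 0.98 in OA. The SLA-DOB probes gave 0.08 and 0.21, and CD74 is given above. The files used here hold no probe sequences, so the stretch of each transcript that a probe reads was not analysed here.

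Genes outside the members were ranked by likeness to the brighter CD74 probe, as the mean of Pearson r over the 7 sham and over the 7 OA arrays, among 2249 named genes. The closest were SPP2 (0.947), TLR9 (0.861), a receptor for microbial DNA, XPNPEP2 (0.846), an aminopeptidase, SOX10 (0.821), a transcription factor of neural crest cells, and NUDT2 (0.816). Their probes gave low signals, with geometric means of 23.7 (SPP2), 53.9 (TLR9), 30.1 (XPNPEP2), 72.4 (SOX10) and 110 (NUDT2). The median over all genes was 0.05 and the 95th percentile 0.57. The members were not ranked. The mean r of the 8 SLA-D genes to the same probe ran from -0.68 (SLA-DQA1) to 0.23 (SLA-DOB). Ranked the same way against SLA-DRA, a choice made after the values were seen, the closest were CD86 (0.934), the costimulator on antigen-presenting cells, CCR1 (0.914), a chemokine receptor of myeloid cells, HCST (0.909), an adaptor of immune receptors, IFI30 (0.906), the thiol reductase that unfolds antigens in lysosomes, and PMAIP1 (0.905), a protein that promotes cell death. The median there was -0.03 and the 95th percentile 0.679. CD86 lay between -1.53 and 0.47 with a median of -0.58 on sham arrays, and between -1.26 and 0.53 with a median of -0.67 on OA arrays, and its group difference was 0.08 ± 0.34, with -0.42 on its other probe.

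Genes that switch class II transcription on were mostly without a call. Of 9 measured, 0 were called higher and 1 lower, where 67 of all 2258 named genes tested were called higher (2.97%) and 6 lower (0.266%); the median difference was -0.12 in the list and 0.00 over all named genes. The 1 called gene was IFNGR2, which makes the signalling chain of the receptor for interferon gamma. It had a level of 2.52 at the lowest, 2.73 at the median and 2.998 at the highest on sham arrays, and of 1.68, 2.06 and 2.48 on OA arrays. The groups did not overlap, and the difference was -0.72 ± 0.16 (limma, adjusted p = 0.019). The call was lost with the slide as a random block (-0.68, adjusted p = 0.18) and with array brightness as a covariate (-0.75, adjusted p = 0.36). Few probes of any kind passed in those fits. Of 38818 tested probes, 18 were called higher and 0 lower with the slide block, and 3 higher and 1 lower with brightness.

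NFYB, a subunit of a factor that binds class II promoters, had the next smallest p in that list, with -0.67 ± 0.21 (limma, adjusted p = 0.092) and all 4 of its probes negative. IFNGR1, the other receptor chain, gave -0.12 ± 0.21, IFNG itself -0.36 ± 0.22, JAK1 0.24 ± 0.20, JAK2 -0.02 ± 0.17 and IRF1 0.12 ± 0.43. The other JAK1 and IRF1 probes disagreed in sign, with JAK1 from -0.35 to 0.41 over 5 probes and IRF1 at -0.25 on its other probe. IRF1, a transcription factor that interferon induces, was spread widely, from 1.57 to 4.28 on sham arrays. CIITA and the RFX genes were not analysed here.

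Of 14 measured genes for antigen uptake, processing and class II transport, 0 were called in either direction, where 2.97% of all named genes were called higher and 0.266% lower. At an unadjusted p under 0.05 (limma) there were 3 of 14, where 19.6% of all tested probes reached it. The differences were positive for 7 and negative for 7, with a median of 0.00. FCGR2B, an inhibitory Fc receptor that binds antibody complexes, had the smallest p. Its level ran from 2.74 over 3.15 to 3.49 on sham arrays and from 3.07 over 4.08 to 4.63 on OA arrays. Of the OA arrays 5 lay above the highest sham array, and the difference was 0.72 ± 0.23 (limma, adjusted p = 0.091), positive on all 3 probes; without OA 1 it was 0.85 with an adjusted p of 0.027. LAMP1, a membrane protein of lysosomes, gave -0.57 ± 0.25 (adjusted p = 0.22) and lay from 1.51 to 2.50 in sham and from 0.58 to 2.17 in OA. IFI30 gave 0.64 ± 0.42 on its brightest probe and a difference near 0 on its other, and among the proteases that cut antigens or CD74, CTSB gave 0.12 ± 0.18 with 3 of its 4 probes negative (down to -0.58), CTSD 0.09 ± 0.18 with -0.09 on its other probe, and CTSH -0.58 ± 0.26 (adjusted p = 0.24).

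Of 15 measured genes for costimulation and T cell partners, 0 were called and 0 had an unadjusted p under 0.05 (limma), where 2.97% of all named genes were called higher, 0.266% lower and 19.6% of all tested probes had an unadjusted p under 0.05, with 11 differences positive, 4 negative and a median of 0.08. The smallest p values were those of CD274, a ligand that restrains T cells, at -0.54 ± 0.39 (limma, adjusted p = 0.47), and of ICOS, a costimulatory receptor of T cells, at -0.68 ± 0.59 (adjusted p = 0.56). Both were dim, well above background on 12 and 13 arrays. CD40, the receptor through which T cells activate antigen-presenting cells, gave 0.34 ± 0.31 on its brightest probe and -0.46 on its other, CD80 0.08 ± 0.16, and CD4, the T cell coreceptor that binds class II molecules, 0.24 ± 0.21.

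**Figure D5:**
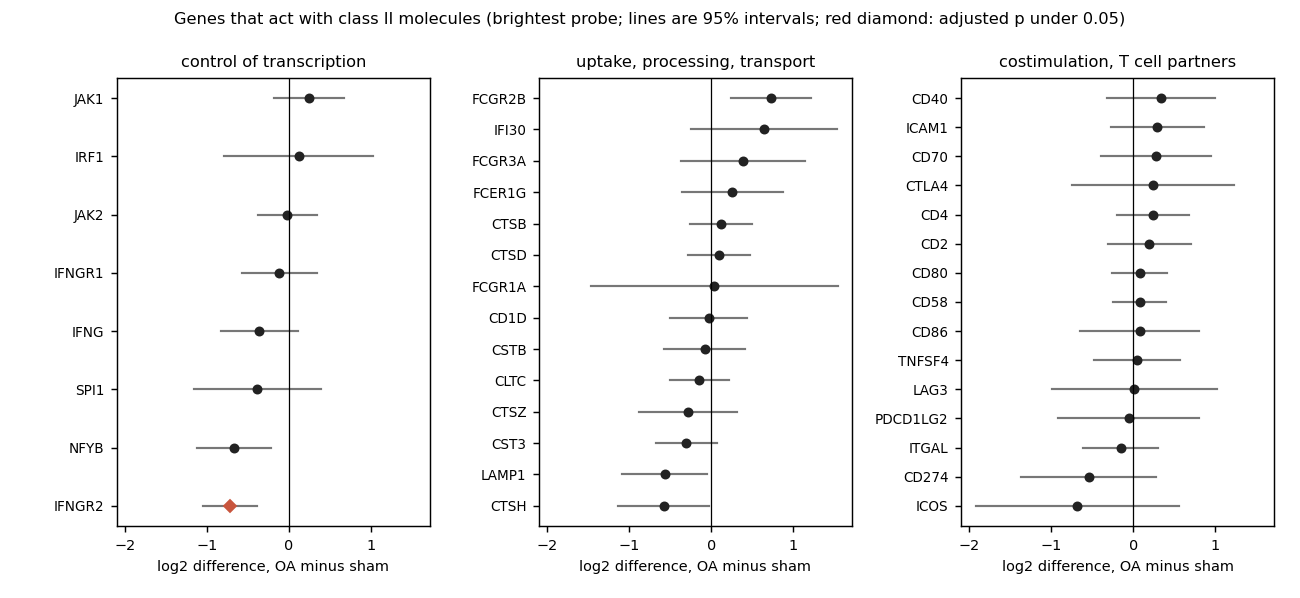
OA minus sham for 37 of the 38 genes tested that act with class II molecules, by list. The x axis is the log2 difference of the brightest probe, lines are 95% intervals over 7 arrays per group, and the red diamond is the only gene with an adjusted p under 0.05. IFNGR2 stands at -0.72, and the other genes shown had adjusted p of 0.05 or more.

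Markers of the cells that carry class II molecules, and of other cells a meniscus can hold, are to be read against the 2.97% of all named genes called higher and 0.266% called lower. Of 7 macrophage and monocyte markers 0 were called, and their summed linear signal ran from 15.9 to 75.8 times the 75th percentile on sham arrays and from 35.97 to 69.1 times on OA arrays. Of 4 dendritic cell markers 1 was called: XCR1, a receptor of cross-presenting dendritic cells, was higher in OA by 0.89 ± 0.17 (limma, adjusted p = 0.012) on its brighter probe and differed by -0.02 on its other. The other 3 gave -0.73 ± 0.36 (FSCN1, with 0.34 on its other probe), -0.16 ± 0.18 (CCR7) and 0.31 ± 0.37 (CD209), none of them called. The summed signal of the 4 ran from 5.87 over a median of 8.97 to 9.83 on sham arrays and from 2.86 over 4.16 to 10.8 on OA arrays. The FSCN1 probe was the brightest of the 4 and made up most of that sum, with a median level of 3.09 on sham arrays and 1.80 on OA arrays. The sum therefore does not stand for the 4 markers evenly. Of 7 T cell markers 0 were called, with sums of 1.29 to 5.50 in sham and 1.01 to 3.79 in OA, and of 2 B cell markers 0, with sums of 0.051 to 0.231 and 0.058 to 0.131. The 4 endothelial and 5 meniscus matrix markers also had 0 calls. At an unadjusted p under 0.05 there was 1 gene each among the macrophage (SIRPA) and T cell (IL7R) markers and 0 among the B cell, endothelial and matrix markers, where 19.6% of all tested probes reached it.

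Across animals, no marker correlated with SLA-DRA at an adjusted p under 0.05 by Pearson r. The closest were AIF1, a macrophage gene, at 0.786 in sham and 0.855 in OA (exact permutation, adjusted p = 0.13 and 0.082), and the T cell genes CD8A at 0.816 and 0.852 (exact permutation, adjusted p = 0.082 and 0.077) and CD3G at 0.763 and 0.815 (exact permutation, adjusted p = 0.16 and 0.13). Without the 2 arrays farthest from the median of SLA-DRA, r in sham and OA was 0.876 and 0.599 for AIF1. It was then 0.348 and 0.741 for CD8A, and 0.499 and 0.725 for CD3G. Other T cell genes had r below 0: LCK gave -0.787 in sham and -0.153 in OA (exact permutation, adjusted p = 0.13 and 0.86), and CD3E -0.339 in sham against 0.616 in OA (exact permutation, adjusted p = 0.63 and 0.30). By rho, TYROBP, an adaptor of myeloid receptors, reached 0.964 in OA (exact permutation, adjusted p = 0.031). CD163, a scavenger receptor of tissue macrophages, gave 0.162 and -0.200, and CD79A, of B cells, -0.731 and -0.620 (exact permutation, adjusted p of 0.18 to 0.84 over these 4). The part of cell composition in the class II levels was not tested.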

How the data were processed

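Per the file headers, Agilent Feature Extraction 11.0.1.1 produced the spot intensity values, with background removed on each array; no step in the headers brings the deposited intensity values of different arrays to a common scale. The authors' deposited log2 table was used as an alternative only. It follows the scanner signal of each array (rho 0.994 to 1.00 across probes) with medians of 5.99; its processing steps are not given in the sources used here.

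Log2 of the processed signal was averaged over spots of a probe, with 82 marked spots set missing, and scaled by subtracting the 75th percentile of all non-control probes of that array. Tested probes had to stand well above background on 7 or more of 14 arrays (38818, leaving out 4785) with limma 3.58.1 in R 4.3.3, two-sided, Benjamini-Hochberg adjusted, threshold 0.05. The number of arrays limits the precision. The fitting code was tested on simulated data. Of 5779 probes with a RefSeq accession, 5461 matched the RefSeq table; a gene not named was not analysed here, and 1 list gene is counted but its values are not reported here. The probe with the highest mean signal stood for a gene outside the members.

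Relations were computed within each group with two-sided exact permutation of 5040 pairings, adjusted over 102 relations. Members and lists were chosen with earlier results of these data known. The text names every member probe, list genes with an adjusted p under 0.05 or otherwise the 2 smallest p of a list, and the 5 genes most like CD74; list genes named beyond that, and the marker genes, were picked for their role or after their values were seen. Alternatives were quantile normalization, median scaling, normexp (offset 50, on median spot and background signals), the authors' table, no filter or one requiring all 14 arrays, marked spots left in, trended and robust variances, array weights, replicate, slide or scan-day blocks, array brightness as a covariate, and slides or single arrays left out. Same-numbered arrays were not taken as pairs.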

Additional observations from a re-analysis of the deposited data

Results flagged for a closer look

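In 3 of 74 checks of a gene's 7 arrays in a group, the highest or lowest array lay apart from the others by more of the group's range than the 95% critical value of Dixon's test for 7 samples allows; chance alone gives this in about 1 of 20 groups. The SLA-DQB1 probe A_72_P039061 had a level of 7.51 in OA 2, with a gap of 0.604 of the OA range to the next array. The SLA-DRA probe A_72_P571544 had a level of 4.78 in sham 1, with a gap of 0.632. ICOS had a level of -6.81 in OA 3, with a gap of 0.578, and its probe was well above background on 6 of 7 OA arrays.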

How the results depend on the processing

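Of 30 alternatives, 29 called 0 of the 32 member probes, as the main setting did; normexp background correction called 2 higher, SLA-DOB A_72_P634856 at 0.64 (limma, adjusted p = 0.0016) and A_72_P440006, whose sign turned, at 0.40 (adjusted p = 0.017). Under normexp 9 of the 38 pathway genes were called higher and 5 lower, against 0 and 1 in the main setting; CD274 turned to 0.51 (adjusted p = 0.031) and LAMP1 passed at -0.54 (adjusted p = 0.047). Normexp moved the median of all tested probes to 0.34 and called 17635 of them higher and 778 lower. The move was not the same for every probe, so 0.34 is not an offset to take off each difference. The brightest SLA-DRA probe went from 0.52 to 0.34 and IFNGR2 from -0.72 to -0.69, whereas CD274 went from -0.54 to 0.51. The member median under normexp was -0.06. The 1 pathway gene called lower was IFNGR2, which stayed called in 24 of the 30 alternatives and had a difference of -0.79 to -0.57 in all 30. The count was 0 with the slide (adjusted p of IFNGR2 = 0.18) or the scan day (0.10) as a random block, with array brightness as a covariate (0.36), without slides 3 and 4 (0.19) and without slide 4 (0.21), and it was 2 without slide 5. Of all tested probes, the slide block called 18 higher and 0 lower, the scan day 143 and 5, and brightness 3 and 1. The counts were 156 and 39 without slides 3 and 4, and 233 and 3 without slide 4, against 1120 and 329 in the main setting. Where so few probes passed at all, 0 calls among the members or pathway genes say little. Leaving out each array in turn gave 0 to 1 pathway genes higher and 1 to 2 lower; without OA 1 the 1 higher was FCGR2B (0.85, adjusted p = 0.027) and without OA 6 there were 2 lower. Without slides 3 and 4, FCGR2B was the 1 gene called higher (1.29, adjusted p = 0.048). The causes of these changes were not tested.

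The number of member probes higher on average in OA, 18 of 32 in the main setting, was 8 without slides 3 and 4, 9 without OA 2, 13 under normexp and with array brightness as a covariate, and 28 without OA 3. Replicate numbers did not pair the arrays: deviations of same-numbered arrays correlated at -0.19 to 0.27. With the replicate number as a block 0 of 32 member probes were called, 0 pathway genes were called lower (IFNGR2 -0.72, adjusted p = 0.091), and 295 of all tested probes were called higher and 40 lower. The limits are few arrays, a dim SLA-DOB probe (A_72_P440006) that was well above background on 4 of 7 OA arrays, and slides that hold 1 group each.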
